A study of Mus musculus with 12 samples.

Results

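The transcripts described here encode enzymes that add the methyl mark m6A (N6-methyladenosine) to RNA, their partner proteins, and the enzymes that take the mark off. The 10 genes, *Mettl3*, *Mettl14*, *Mettl16*, *Wtap*, *Zc3h13*, *Rbm15*, *Rbm15b*, *Cbll1*, *Alkbh5* and *Fto*, were chosen by name, out of 54446 genes in each count table, and were found through their Ensembl identifiers. All 10 were measured in every library, with 276 to 30965 reads each, and all 10 passed the filter on low counts in each comparison.

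In mammalian mRNA, METTL3 carries the catalytic site of the main m6A writer and METTL14 holds the RNA beside it. WTAP anchors this pair to ZC3H13, RBM15, RBM15B and CBLL1, which help to bring the complex to its RNA and keep it in the nucleus. METTL16 is a separate writer that acts on U6 small nuclear RNA and on *Mat2a*, the gene of the enzyme that makes the methyl donor S-adenosylmethionine. ALKBH5 and FTO are demethylases, called erasers. YTHDF2 is a cytoplasmic reader that binds m6A in mRNA and recruits the machinery that shortens and degrades it. The transcripts of writers and erasers can themselves be held by YTHDF2. Measured here were their levels in the lysate and in the RNA recovered with an antibody to YTHDF2.

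The main writer prefers the sequence context GGACT in DNA letters, in which the A is the base that can be methylated. Each of the 10 transcripts held at least 2 such matches on its sense strand, as did most others: 91.3% of the 13043 protein-coding transcripts tested in unirradiated cells held 1 or more. Matches are shown for 4 transcripts whose representation in the YTHDF2 immunoprecipitate is at the centre of the results. For each it is the match nearest to the last coding base among those whose whole window lay in a single exon, which need not be close to it. Each window is 29 bases of the mRNA strand, 5′ to 3′, from the GENCODE M21 transcripts (GRCm38, the same build as mm10), with the GGACT match in capitals. The match of *Zc3h13* lay in the coding sequence at chr14:75339421-75339449, plus strand, at position -207 from the last coding base. That of *Rbm15* was also coding, at chr3:107331178-107331206 on the minus strand, at position -999. That of *Rbm15b* was coding too, at chr9:106885317-106885345 on the minus strand, at position -1026. The match of *Alkbh5* lay in the 3′ UTR at chr11:60554421-60554449, plus strand, 21 bases after the last coding base.
Zc3h13: atgtttcagacgGGACTctgcaatccgga
Rbm15: cagaggtgatcgGGACTtgcccagcagca
Rbm15b: ctttttggaaggGGACTggaccagcctca
Alkbh5: tgtgccctcttgGGACTctggctaatcct
A match describes the letters in the window and does not show that the A is methylated or that YTHDF2 is bound there.

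The cells were CD11b+ myeloid cells that had entered tumors of MC38, a colon carcinoma line of the mouse, and were sorted from them. All mice were WT, which the methods define as *Ythdf2* f/f, so all 4 groups shared this genotype. Tumors were unirradiated (Ctrl) or had received 1 local dose of 20 Gy (IR), and irradiated tumors were collected 3 days later. Each condition had 3 replicates, each from pooled mice and called technical by the study, so p-values measure only the spread between these samples. Each lysate gave an Input library, which measures abundance, and a library of the RNA recovered with an antibody to YTHDF2 (IP), so that there were 12 libraries in 4 groups of 3. No library made with a control antibody was analysed here, so IP/Input is a ratio between a YTHDF2 IP and its lysate and not a ratio to non-specific recovery.

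Reads counted on genes numbered 34445784 to 42382532 in the Inputs and 27852948 to 33882664 in the IPs. At that depth 3 reads, taken as the limit of detection, corresponded to 0.0708 to 0.108 CPM, the read count scaled to library size, and every member lay far above it. Reads that overlapped no counted exon, which can include reads from introns, made up 24.6% to 27.0% of the Inputs, 41.8% to 42.7% of the Ctrl IPs and 49.4% to 54.1% of the IR IPs. All 8 myeloid markers were detected in every group, and their summed level was 9293 to 10119 CPM in the Ctrl Inputs and 12469 to 13237 CPM in the IR Inputs, against 2746 to 3063 CPM in the 6 IPs. The list did not move as one: in the Input after IR 4 markers were higher, 3 were lower (*Ptprc*, *Csf1r* and *Adgre1*) and 1 did not pass, and the higher sum came mainly from *S100a9* (mean 3516 to 4901 CPM), *S100a8* (2100 to 2902 CPM) and *Itgam* (943 to 1717 CPM). The summed level of 4 epithelial or tumor markers was 119 to 127 CPM in the Ctrl Inputs and 90.8 to 96.8 CPM in the IR Inputs, nearly all of it from *Cdh1* (mean 119 to 88.3 CPM), while *Epcam* had 4.63 and 5.92 CPM and did not pass the test. The 5 T and NK cell markers summed to at most 1.49 CPM in any Input, the 3 B cell markers to at most 23.5 CPM, the 3 fibroblast markers to at most 11.9 CPM and the 3 endothelial markers to at most 2.05 CPM. Among these, *Ncr1* and *Krt8* had no read in the IR Inputs and *Dcn* none in the Ctrl Inputs.

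Levels between genes were compared per kilobase (kb) of annotated exon. In the Ctrl Inputs, *Zc3h13* stood first with 48.3 ± 1.67 CPM per kb (SD, n = 3), followed by the eraser *Alkbh5* with 10.5 ± 0.43, by *Wtap* with 9.58 ± 0.42 and by *Rbm15b* with 8.28 ± 0.45, and these 4 did not overlap. *Mettl3* had 4.75 ± 0.36 CPM per kb, and its range overlapped that of *Rbm15* with 4.34 ± 0.081. The ranges of *Rbm15* and *Fto* (4.30 ± 0.21) overlapped, as did those of *Fto* and *Mettl14* (3.84 ± 0.23). The lowest levels were those of *Cbll1* with 2.96 ± 0.081 and *Mettl16* with 2.48 ± 0.048 CPM per kb. On this scale *Mettl3* and its partner *Mettl14* lay below *Wtap*, *Zc3h13* and *Rbm15b*. The order rests on the length used: per kb of the transcript with the longest coding sequence, *Mettl16* moved from the 10th place to the 3rd *Alkbh5* from the 2nd to the 6th and *Rbm15b* from the 4th to the 8th, whereas *Zc3h13* stayed first and *Wtap* came 2nd. *Mettl3* and *Mettl14*, with 11.9 and 10.4 CPM per kb of transcript, then lay above *Rbm15b* with 8.28.

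After irradiation the order in the Inputs was *Zc3h13* with 58.6 ± 2.74 CPM per kb (SD, n = 3), *Wtap* with 8.27 ± 0.13, *Rbm15b* with 6.24 ± 0.18 and *Alkbh5* with 6.24 ± 0.31, the last 2 overlapping. *Mettl3* (4.74 ± 0.24) and *Fto* (4.45 ± 0.13) overlapped as well, and *Mettl14* (3.67 ± 0.069) and *Cbll1* (2.84 ± 0.17) followed. *Rbm15* had fallen to the level of *Mettl16*, with 2.17 ± 0.24 and 1.99 ± 0.019 CPM per kb.

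The comparison of IR with Ctrl in the Input asks how abundance differed 3 days after irradiation. Of the 10 transcripts, 5 were lower (*Mettl16*, *Wtap*, *Rbm15*, *Rbm15b* and *Alkbh5*), 1 was higher (*Zc3h13*) and 4 did not pass the test (*Mettl3*, *Mettl14*, *Cbll1* and *Fto*). Of the 16914 genes tested, 23.9% were lower and 21.0% higher at the same threshold, an adjusted p of 0.05 in edgeR. The median log2 difference was -0.22 over the 10 transcripts and 0.0072 over all genes. In RNA from bulk cells, fewer cells of a type and less RNA per cell cannot be told apart, and the part of the marker shifts given above in these differences was not tested.

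The eraser *Alkbh5* had 62.1, 66.0 and 61.1 CPM in the 3 Ctrl Inputs and 35.4, 37.6 and 39.1 CPM in the 3 IR Inputs. Every IR value lay below every Ctrl value. The fall was -0.83 on the log2 scale (SE 0.053, adjusted p = 6.84e-13, edgeR), which is 1.78-fold. *Rbm15*, an RNA-binding adaptor of the writer, had 31.8, 31.9 and 32.9 CPM in Ctrl and 16.1, 17.8 and 14.3 CPM in IR. It showed the largest difference of the 10, a 2.12-fold fall (log2 -1.08, SE 0.078, adjusted p = 8.84e-12, edgeR), again with no overlap. Its paralog *Rbm15b* fell from 56.8, 54.0 and 50.9 CPM to 39.3, 41.4 and 41.2 CPM (log2 -0.49, SE 0.054, adjusted p = 3.26e-08, edgeR).

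*Zc3h13*, the zinc finger subunit that links WTAP to the RNA-binding adaptors, was the 1 transcript that rose. Its levels were 316, 296 and 299 CPM in Ctrl and 380, 349 and 376 CPM in IR, without overlap, and the rise was 1.15-fold (log2 0.20, SE 0.036, adjusted p = 5.44e-05, edgeR). *Mettl16* fell from 34.1, 35.0 and 33.6 CPM to 27.4, 27.3 and 27.8 CPM (log2 -0.39, SE 0.061, adjusted p = 6.19e-06). The WTAP transcript fell from 59.2, 62.7 and 57.6 CPM to 50.9, 51.7 and 52.5 CPM (log2 -0.29, SE 0.049, adjusted p = 2.01e-05). Both of these smaller differences lost the call when all 12 libraries were fitted together (adjusted p = 0.0758 for *Mettl16* and 0.0603 for *Wtap*, edgeR). The count of lower transcripts was then 3, and over all genes it was 1500 of 20720, from 4047 of 16914.

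*Mettl3* and its partner *Mettl14* did not pass the test in the Input. *Mettl3* had 22.1, 24.6 and 25.6 CPM in Ctrl and 22.9, 25.3 and 23.9 CPM in IR (log2 -0.084, SE 0.074, adjusted p = 0.386, edgeR), and the 2 groups overlapped. *Mettl14* had 30.3, 26.8 and 28.5 CPM in Ctrl and 27.7, 26.7 and 27.3 CPM in IR, also overlapping (log2 -0.15, SE 0.067, adjusted p = 0.0825). *Cbll1*, an E3 ligase-like subunit, had 11.9 ± 0.32 and 11.4 ± 0.66 CPM (SD, n = 3), with adjusted p = 0.258. The second eraser, *Fto*, had 56.0 ± 2.77 and 57.9 ± 1.73 CPM, with a fitted log2 difference of -0.030 (SE 0.050, adjusted p = 0.670, edgeR). The difference between the 2 erasers in this comparison was not tested in itself. The CPM values use 1 scale for all 12 libraries, whereas each fitted difference uses the scale of the libraries compared. The ratio of the CPM values can therefore differ slightly from the fitted fold, and for *Fto* here even the sign differed.

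**Figure D1:**
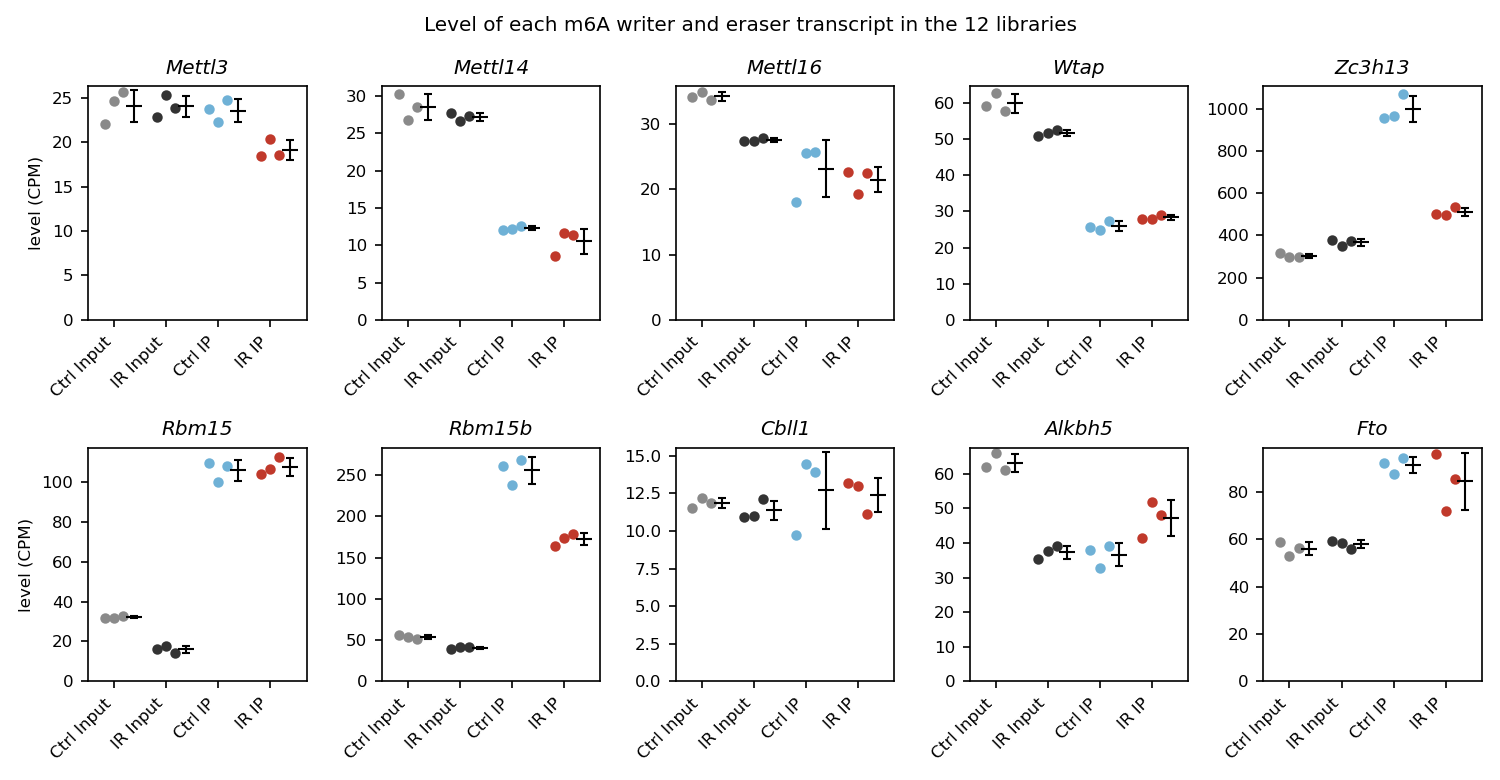
Level of each transcript in CPM on a linear axis from 0, with 1 point per library for the Ctrl Input, IR Input, Ctrl IP and IR IP, and beside each group its mean ± SD (n = 3). *Rbm15* and *Alkbh5* are lower in the IR Inputs than in the Ctrl Inputs, and *Zc3h13* falls from 997 to 512 CPM in the IP although its Input level is higher.

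The comparison of IP with Input within each condition asks which transcripts made up a larger share of the RNA recovered with YTHDF2 than of the lysate. In Ctrl, 4 of the 10 transcripts were higher in the IP, 4 were lower and 2 did not pass the test. Of the 17416 genes tested in Ctrl, 34.1% were higher and 34.6% were lower. In IR, 5 of the 10 were higher, 3 were lower and 2 did not pass the test, and of 18650 genes tested 32.1% were higher and 30.4% lower. The median log2 difference of the 10 was 0.11 in Ctrl and 0.29 in IR, and that of all genes was 0.018 and 0.10. As a group, the 10 transcripts were called about as often as genes at large, and the members differed widely among themselves.

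Neither *Mettl3* nor its partner *Mettl14* was over-represented in the IP. *Mettl14* was among the most depleted, with 12.1, 12.2 and 12.6 CPM in the 3 Ctrl IPs, under every Ctrl Input. The log2 difference was -1.14 (SE 0.10, adjusted p = 1.94e-08, edgeR) in Ctrl and -1.32 (SE 0.15, adjusted p = 1.68e-05) in IR, where its IPs held 8.51, 11.6 and 11.4 CPM. *Mettl3* had 23.7, 22.2 and 24.8 CPM in the Ctrl IPs, within the range of its Inputs (log2 0.042, SE 0.096, adjusted p = 0.713). In the IR IPs it had 18.5, 20.4 and 18.5 CPM, below each IR Input, with a log2 difference of -0.28 that did not pass the test (SE 0.12, adjusted p = 0.0590, edgeR). A part of the *Mettl3* gene, 933 exonic bases or 18.4% of its exon length, overlaps exons of *Tox4* on the opposite strand, and whether the counting used strand was not given in the sources used here. *Tox4* was itself lower in the IP, with a log2 difference of -1.40 in Ctrl and -1.17 in IR.

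*Mettl16* was lower in the Ctrl IP, with 18.1, 25.6 and 25.7 CPM against 34.1, 35.0 and 33.6 CPM in the Input (log2 -0.49, SE 0.12, adjusted p = 0.00109, edgeR). The first Ctrl IP library stood apart, and without it the log2 difference was -0.30 (adjusted p = 0.00418). In IR the difference was -0.30 (SE 0.11, adjusted p = 0.0370), but the call was lost in 12 of 14 alternative fits. With the replicate number of IP and Input as a block the log2 difference was -0.31 with adjusted p = 0.0704, without IR IP replicate 2 it was -0.15 with adjusted p = 0.194, and over all alternatives the adjusted p ranged from 0.00271 to 0.262.

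The regulatory subunits were spread from depleted to strongly over-represented. *Wtap* was lower in the IP, with 25.7, 24.9 and 27.5 CPM in the Ctrl IPs (log2 -1.13, SE 0.075, adjusted p = 3.58e-10, edgeR) and 27.9, 27.9 and 29.1 CPM in the IR IPs (log2 -0.82, SE 0.084, adjusted p = 8.76e-06). No IP value of *Wtap* reached an Input value. *Cbll1* did not pass the test in either condition, with log2 differences of 0.17 (SE 0.15, adjusted p = 0.315) and 0.18 (SE 0.15, adjusted p = 0.328). Its first Ctrl IP library was low, at 9.75 CPM against 14.4 and 13.9 CPM in the other two, and without that library the Ctrl difference was 0.37 and passed (adjusted p = 0.0141, edgeR, with 0.0141 to 0.947 over its alternatives). Exons of an antisense gene, *Gm29542*, cover 17.6% of the *Cbll1* exon length, but that gene had only 0 to 20 reads in any library.

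*Rbm15b* was the most over-represented of the 10 in Ctrl. Its Ctrl IPs held 261, 238 and 269 CPM against 56.8, 54.0 and 50.9 CPM in the Inputs, which is a 5.0-fold difference (log2 2.32, SE 0.058, adjusted p = 4.78e-16, edgeR). In IR the IPs held 164, 173 and 179 CPM and the difference was 4.4-fold (log2 2.14, SE 0.063, adjusted p = 3.53e-10). Each IP value exceeded every Input value of its condition. *Rbm15b* shares 14 exonic bases with *Manf* on the same strand and 75 with *Dcaf1* on the opposite strand, 0.215% and 1.15% of its exon length. Both of these neighbours were lower in the IP in both conditions, with log2 differences of -1.07 and -0.91 in Ctrl and of -1.59 and -0.42 in IR.

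*Rbm15* had 109, 99.7 and 108 CPM in the Ctrl IPs and 104, 106 and 112 CPM in the IR IPs. The Ctrl difference was 3.46-fold (log2 1.79, SE 0.062, adjusted p = 3.58e-14, edgeR), and the IR difference of 6.94-fold (log2 2.80, SE 0.095, adjusted p = 9.20e-10) was the highest of any member. *Zc3h13* was the most abundant member in the IP, with 957, 966 and 1069 CPM in Ctrl, 3.46-fold over its Input (log2 1.79, SE 0.046, adjusted p = 6.06e-16). In IR its IPs held 504, 499 and 533 CPM, and the difference from the Input was 1.44-fold (log2 0.53, SE 0.048, adjusted p = 3.23e-06). No exon of another annotated gene overlaps the exons of *Rbm15* or *Zc3h13*.

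Of the 2 erasers, *Fto* was over-represented in the IP in both conditions, and *Alkbh5* was under-represented in Ctrl and over-represented in IR. *Fto* had 92.3, 87.7 and 94.2 CPM in the Ctrl IPs (log2 0.78, SE 0.061, adjusted p = 2.96e-09, edgeR) and 95.9, 72.0 and 85.5 CPM in the IR IPs (log2 0.60, SE 0.10, adjusted p = 3.58e-04), above every Input value. *Alkbh5* had 38.0, 32.9 and 39.2 CPM in the Ctrl IPs, below every Ctrl Input (log2 -0.71, SE 0.076, adjusted p = 2.19e-07, edgeR). In IR the sign turned: its IPs held 41.5, 51.8 and 48.1 CPM against 35.4, 37.6 and 39.1 CPM in the Inputs (log2 0.39, SE 0.10, adjusted p = 0.00604). *Fto* overlaps exons of 2 poorly counted genes, *4831440D22Rik* with 0 to 15 reads and *Gm45427* with 0 to 71 reads, over 1.11% and 2.33% of its exon length. Exons of *Alkbh5* are free of other annotated genes.

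**Figure D2:**
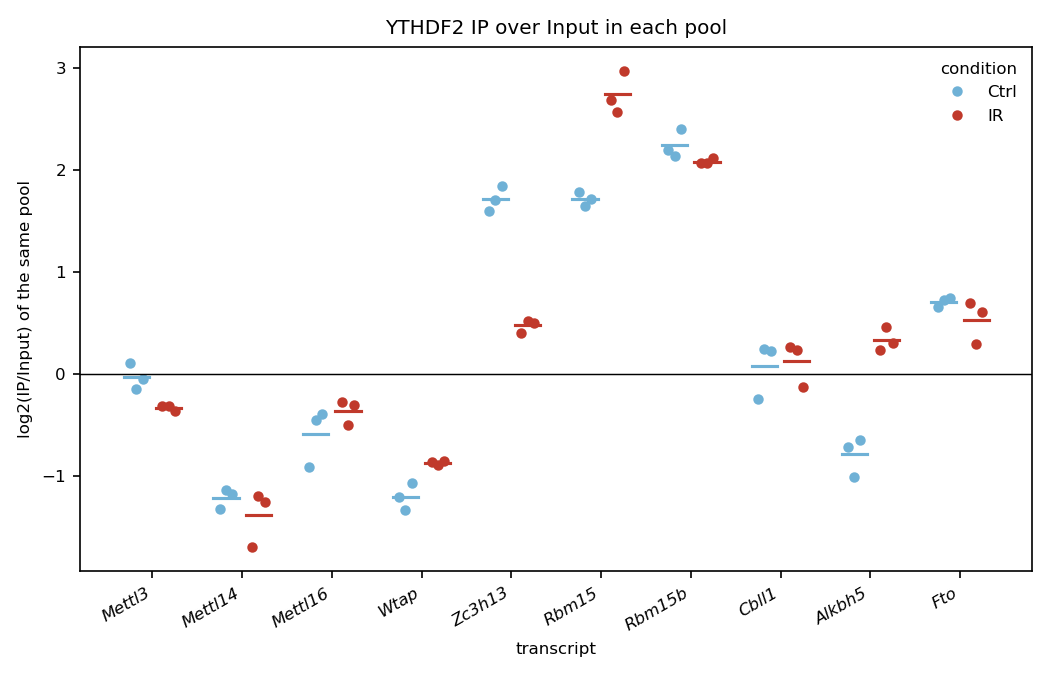
Log2(IP/Input) of each transcript in each of the 3 Ctrl and 3 IR pools (points), with the mean as a line, on the common CPM scale. IP and Input were paired by replicate number, a pairing that no source states. The pools of *Alkbh5* lie between -1.0 and -0.64 in Ctrl and between 0.23 and 0.46 in IR, and those of *Zc3h13* between 1.60 and 1.84 in Ctrl and between 0.41 and 0.52 in IR.

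The change of IP/Input with IR was tested as an interaction over all 12 libraries. Of the 10 transcripts, 3 had a higher IP/Input after irradiation (*Wtap*, *Rbm15* and *Alkbh5*), 1 had a lower one (*Zc3h13*) and 6 did not pass the test. Over 20720 genes tested, 6.28% were higher and 13.9% lower. When the libraries were scaled by their size alone, the split over all genes turned from 1301 higher and 2881 lower to 2862 higher and 877 lower, and the median log2 change moved from -0.083 to 0.23, so a small change is read here only relative to that shift. The median change of the 10 transcripts was -0.064.

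*Alkbh5* had log2(IP/Input) values of -0.71, -1.0 and -0.64 in the Ctrl pools and 0.23, 0.46 and 0.30 in the IR pools. With IP and Input paired by number, every pool was negative in Ctrl and positive in IR. These signs do not rest on the pairing, as each Ctrl IP lay below every Ctrl Input and each IR IP above every IR Input. The change was 1.12 (SE 0.13, adjusted p = 2.80e-06, edgeR), and it lay between 1.07 and 1.43 over 19 alternatives, all past the threshold. It combined the 1.78-fold lower Input with an IP level that was higher, not lower: the IR IP exceeded the Ctrl IP by 0.37 (log2, SE 0.12, adjusted p = 0.0422, edgeR). That IP difference was lost in 5 of the 6 fits without 1 library, those without any of the 3 Ctrl IPs or without IR IP replicate 2 or 3, with values of 0.31 to 0.42 and adjusted p up to 0.184 (lowest over its alternatives 0.00278).

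*Rbm15* had values of 1.78, 1.64 and 1.72 in the Ctrl pools and 2.68, 2.57 and 2.97 in the IR pools, without overlap. Its change of 1.03 (SE 0.11, adjusted p = 9.81e-07, edgeR) went with an Input that fell to 16.1 ± 1.78 CPM from 32.2 ± 0.60 CPM and an IP level of 107 ± 4.37 CPM in IR and 106 ± 5.26 CPM in Ctrl (SD, n = 3). The IP difference was 0.033 on the log2 scale (SE 0.075, adjusted p = 0.824). Both *Alkbh5* and *Rbm15* thus had less transcript in the lysate after irradiation, and neither was called lower in the YTHDF2 IP. The same held for *Mettl16* and *Wtap*, whereas *Rbm15b* was called lower in both fractions. Over all genes tested, 23.9% were lower in the Input and 9.85% in the IP, so a missing call in the IP was the usual case.

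*Zc3h13* changed in the opposite direction. Its log2(IP/Input) was 1.60, 1.70 and 1.84 in the Ctrl pools and 0.41, 0.52 and 0.50 in the IR pools, a change of -1.24 (SE 0.068, adjusted p = 8.39e-11, edgeR). The IP level was 1.94-fold lower in IR (log2 -0.95, SE 0.050, adjusted p = 1.28e-09), while the Input level was higher. The change lay between -1.28 and -0.93 over 19 alternatives and passed in each.

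*Wtap* showed the smallest change that passed. Its pools had -1.20, -1.33 and -1.07 in Ctrl and -0.87, -0.89 and -0.85 in IR, without overlap, and the change was 0.33 (SE 0.11, adjusted p = 0.0388, edgeR). With the replicate number of IP and Input as a block it was 0.33 with adjusted p = 0.0964, and the call was lost in 8 of 19 alternatives, including each fit without 1 of the 6 Input libraries (adjusted p from 0.0565 to 0.120, and from 2.50e-04 to 0.150 over all alternatives).

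Among the 6 others, *Rbm15b* fell in both fractions. Its IP level fell by 0.56 on the log2 scale (SE 0.064, adjusted p = 1.23e-05, edgeR) and its Input by 0.49, and the change of IP/Input was -0.16 (SE 0.086, adjusted p = 0.212). *Fto* had a change of -0.16 (SE 0.12, adjusted p = 0.395), *Mettl3* of -0.30 (SE 0.15, adjusted p = 0.195) and *Mettl14* of -0.16 (SE 0.18, adjusted p = 0.612). *Mettl16* had 0.21 (SE 0.17, adjusted p = 0.463) and *Cbll1* 0.030 (SE 0.22, adjusted p = 0.958). These values miss the threshold and do not show that the ratios were equal. For *Mettl3*, *Mettl14*, *Rbm15b* and *Fto* the sign of the change turned to positive when libraries were scaled by size alone.

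In the comparison of IR with Ctrl in the IP, which shares its libraries with the comparisons above, *Alkbh5* was the 1 transcript called higher, *Zc3h13* and *Rbm15b* were called lower, and 7 did not pass. Of 19255 genes tested, 6.12% were higher and 9.85% lower, and the split became 2665 higher and 828 lower, from 1179 and 1896, with scaling by library size alone. *Mettl3* had 22.2 to 24.8 CPM in the Ctrl IPs and 18.5 to 20.4 CPM in the IR IPs, which do not overlap, but the log2 difference of -0.29 (SE 0.14) did not pass (adjusted p = 0.191, edgeR). The other members that did not pass had log2 differences of -0.22 (*Mettl14*), -0.096 (*Mettl16*), 0.13 (*Wtap*), 0.033 (*Rbm15*), -0.022 (*Cbll1*) and -0.10 (*Fto*). The share of reads on no counted exon was also higher in the IR IPs than in the Ctrl IPs, as given above, and its part in these differences was not tested.

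**Figure D3:**
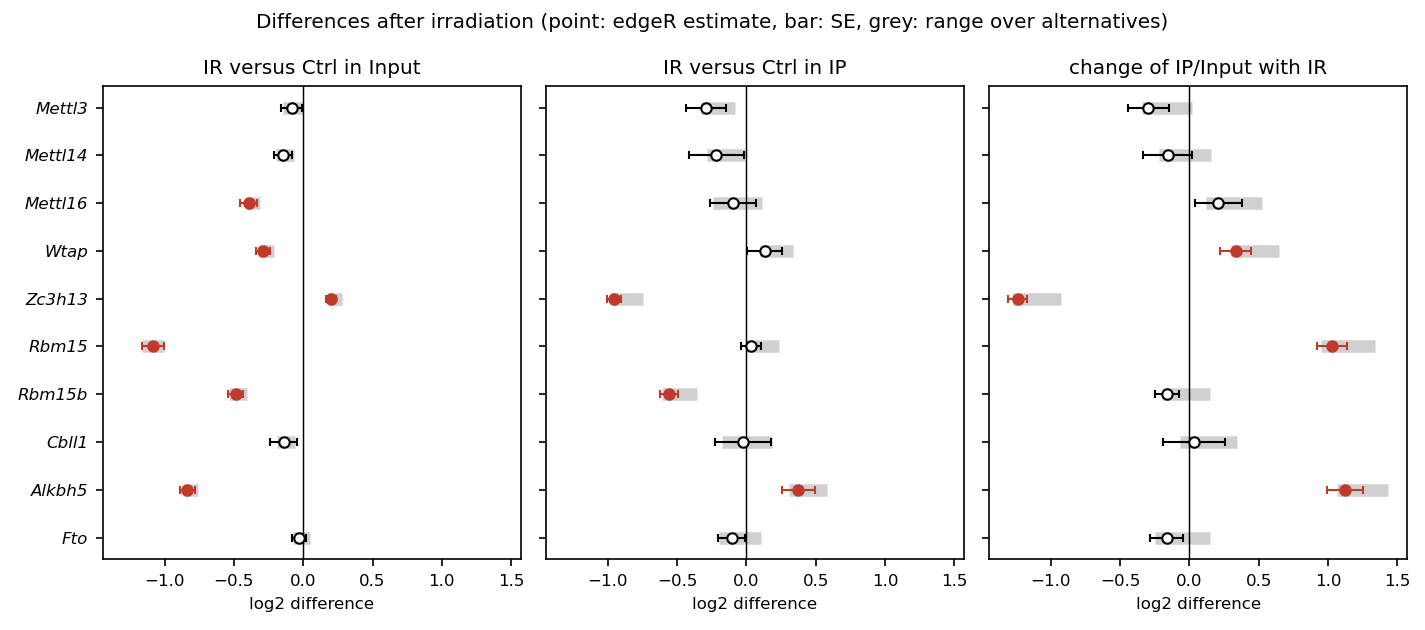
Log2 differences of the 10 transcripts for IR against Ctrl in the Input, IR against Ctrl in the IP, and the change of IP/Input with IR. Points are edgeR estimates with SE (n = 3 libraries per group), filled red where the adjusted p passed 0.05, and grey bars span the values over all alternatives. *Rbm15* and *Alkbh5* lie near -1.08 and -0.83 in the Input and at 1.03 and 1.12 for the ratio, and *Zc3h13* lies at 0.20 and -1.24.

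The 10 transcripts differ in structure in ways that the choice by name did not use, taken here from the transcript with the longest coding sequence of each gene. *Rbm15b* is a single exon of 6511 bases, and *Rbm15* has 2 exons of which the longer spans 3459 bases. *Zc3h13* has 19 exons, the longest 1191 bases, in a transcript of 6144 bases. The 3 most over-represented transcripts in Ctrl were thus 4343 to 6511 bases long, whereas *Mettl14*, *Mettl16*, *Wtap* and *Mettl3* had 2741, 2073, 2060 and 2025 bases. *Fto*, higher in the IP, had 3564 bases. *Cbll1* had 3900 bases and a longest exon of 3379 bases, and was not called in either condition. The median over the 13043 protein-coding genes tested in Ctrl was 2920 bases. *Alkbh5*, at 5730 bases with a longest exon of 4275 bases, was long and yet under-represented in the Ctrl IP. This order of lengths rests on the transcript chosen. Over all annotated exons *Mettl16*, lower in the Ctrl IP, had 13817 bases and *Mettl14* 7419. *Rbm15* then had 7423 bases, *Rbm15b* 6511 and *Zc3h13* 6283, and *Wtap* and *Mettl3* had 6248 and 5076. Across those 13043 genes Spearman's rho between log2(IP/Input) and transcript length was 0.245 in Ctrl, and it was 0.357 over 13806 genes in IR. With the longest exon rho was 0.219 in Ctrl and 0.279 in IR. Genes share libraries and are not independent replicates, so these values are descriptions.

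The number of GGACT matches, counted only in the same chosen transcript of each gene, did not order the members by IP/Input. *Alkbh5* held the most, 10 matches, 8 of them in the 3′ UTR, more than 94.6% of the tested transcripts held. *Rbm15*, the member with the highest IP/Input in IR, held 2, which is 0.46 per kb, and *Rbm15b* held 6, or 0.92 per kb. The 7 matches of *Zc3h13* all lay in its coding sequence, at 1.14 per kb. The highest densities were those of *Wtap*, with 5 matches or 2.43 per kb, and *Mettl3*, with 4 matches or 1.98 per kb, and neither was called higher in the IP. Across all tested protein-coding genes rho with the matches per kb was 0.090 in Ctrl and 0.066 in IR, and rho with the number of matches was 0.248 and 0.313.

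**Figure D4:**
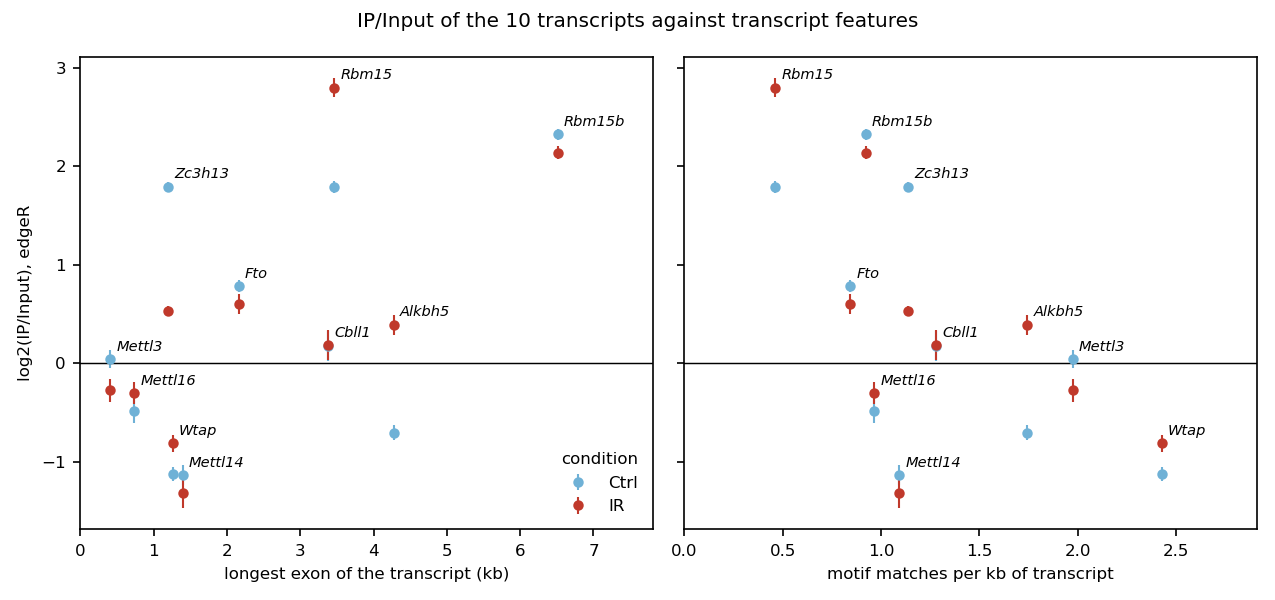
Log2(IP/Input) from edgeR (points, with SE, n = 3 pools per condition) of the 10 transcripts in Ctrl and IR against the longest exon in kb (left) and the number of m6A motif matches per kb of transcript (right). *Rbm15* and *Wtap*, with 0.46 and 2.43 matches per kb, lie at 2.80 and -0.82 in IR and at 1.79 and -1.13 in Ctrl, where *Rbm15b* is higher (2.32), and *Alkbh5* crosses 0 between Ctrl and IR.

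A list of 20 other genes of the m6A pathway, 6 further methyltransferases and their subunits, 3 genes of S-adenosylmethionine supply and 11 readers, gives the surroundings of these transcripts. In Ctrl, 5 of the 20 were higher in the IP, 12 lower and 3 did not pass, where 34.1% of all tested genes were higher and 34.6% lower. In IR the counts were 5, 9 and 6, beside 32.1% and 30.4% of all tested genes. *Virma*, the scaffold of the writer complex, was higher in the IP in both conditions (log2 0.74 in Ctrl and 0.39 in IR) and its ratio fell with IR (-0.33, SE 0.11, adjusted p = 0.0357, edgeR). *Mettl5* and its partner *Trmt112*, which methylate ribosomal RNA, were lower in the IP, with -1.74 and -1.92 in Ctrl and -1.34 and -1.85 in IR.

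*Mat2a*, the METTL16 target, was 1.53 higher in the Ctrl IP and 0.82 higher in the IR IP on the log2 scale, a change of -0.68, and its Input was 0.56 lower after IR. *Ahcy*, which clears the by-product of methylation, and *Mat2b* were lower in the IP, with -2.33 and -2.05 in Ctrl and -1.0 and -2.17 in IR. Of the readers, *Ythdc1* had 1.55 in Ctrl, 0.60 in IR and a change of -0.93, and *Ythdc2* had -1.77, -0.74 and 1.04. The transcript of *Ythdf2* itself was higher in the IP in both conditions (0.74 and 0.50), and its change of -0.22 did not pass the test. After IR it was lower in the Input (-0.25, adjusted p = 2.97e-04, edgeR) and in the IP (-0.38, adjusted p = 0.0275, edgeR). Its IP level was 92.1 ± 0.44 CPM in Ctrl and 70.2 ± 13.3 CPM in IR (SD, n = 3), a wide spread in IR. Alternative fits are not given here for this gene. These values are from all CD11b+ cells. The paper reports YTHDF2 mRNA (by qPCR) and protein raised after IR in myeloid-derived suppressor cells of MC38 tumors. Of the 20, 3 had a higher ratio after IR, 4 a lower one and 13 did not pass (6.28% and 13.9% over all tested genes). In the Input, 2 of the 20 were higher after IR, 9 lower and 9 did not pass (21.0% and 23.9% over all tested genes), with a median log2 difference of -0.22. In the IP, 1 was higher, 3 were lower and 16 did not pass (6.12% and 9.85% over all tested genes).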

How the data were processed

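The deposited files hold whole-number read counts per gene, 1 file per library, and treatment, fraction and replicate were read from the titles. The authors used Trimmomatic 0.39 for trimming, HISAT for alignment to mm10 and HTSeq for counting on GENCODE M19, and deposited these counts without normalization. The strand option of the counting was not given in the sources used here. The methods and the labels name different antibodies (Aviva and Abcam) and different RNA selection.

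Identifiers were matched to GENCODE M21 (97.8% with their version). Counts were scaled by TMM, and edgeR 4.0.16 (R 4.3.3) gave quasi-likelihood tests between the groups compared, for genes that reached 10 counts in 3 or more libraries. Adjusted p-values are Benjamini-Hochberg values over all genes tested, with a threshold of 0.05. SE is the log2 difference divided by the square root of F. The steps were tested on simulated data. Uncounted reads were left out of library sizes.

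Per the methods, the Input is a part of the lysate used for the IP. IP and Input of the same number and condition were taken as 1 pool for ratios per pool, although no source states that the numbers match. The tests did not use this pairing, which entered only as a replicate block among the alternatives. The correlation of their deviations from the group mean was -0.023 to 0.040, and between IP and Input of different numbers it was -0.037 to 0.045. These values give no sign of the pairing. Pools of the same number in Ctrl and IR were different mice. In the comparisons of IR with Ctrl the block joined such pools, so it is arbitrary there. Alternatives were other scalings, DESeq2 1.42.0, other filters, 1 fit of all libraries, a replicate block and each library left out. All members are named. The members and lists were chosen with earlier results of these data known. Counting intervals do not cover PCR copies. The variance between replicates was 3.71 to 7.54 times that of counting alone in the Inputs. It was 9.52 to 12.2 times in the Ctrl IPs and 19.2 to 24.7 times in the IR IPs. Sequences with matches were searched on the sense strand with 12 flanking bases.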

Additional observations from a re-analysis of the deposited data

Results flagged for a closer look

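For 4 transcripts the effect of the IP differed between Ctrl and IR by the interaction test of edgeR over all 12 libraries. The log2 change of IP/Input was 1.12 for *Alkbh5*, 1.03 for *Rbm15*, 0.33 for *Wtap* and -1.24 for *Zc3h13*. In *Alkbh5*, 3 of 3 Ctrl pools had less transcript in the IP than in the Input and 3 of 3 IR pools had more. In the other 3 the sign of log2(IP/Input) was the same in both conditions and the pools of Ctrl and IR did not overlap. These 4 were picked by the test on the same libraries, so their pools describe the result and add no support. The share of all genes with such pools was not computed. Over 20720 genes tested, 6.28% had a higher ratio after IR and 13.9% a lower one. The call of *Wtap* was lost in 8 of 19 alternatives.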

How the results depend on the processing

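Of 750 member values recomputed over the alternatives, 693 kept their direction and their side of the threshold, 27 lost a call, 7 gained one and 23 changed sign, none of these 23 being past the threshold in either fit. The changes of IP/Input of *Zc3h13*, *Rbm15* and *Alkbh5* kept their direction and call in all 19 alternatives each. With the replicate block, the calls lost were *Mettl16* in the IR IP against Input (-0.31) and *Wtap* for the change (0.33), and no other member's call changed. In the Input, 5 members were called lower, and 3 with all 12 libraries in 1 fit. Over all genes the lower calls went from 4047 of 16914 tested to 1500 of 20720, so the members' count fell along with that of genes at large. In the IP, 1 member was called higher after IR, 2 with library size only (*Rbm15*, 0.24), and 0 to 1 with 1 library left out. Over all genes the higher calls numbered 1179, 2665 with library size only, and 715 to 1056 with 1 library left out.

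Signs turned as follows, and the cause was not tested. With library size only, which moved the median of all genes from 0.018 to -0.16 for IP against Input in Ctrl, from 0.10 to 0.25 in IR and from 0.062 to 0.27 for IR against Ctrl in the IP, IP against Input in Ctrl was -0.14 for *Mettl3* and -0.012 for *Cbll1*, the change was 0.017 for *Mettl3*, 0.15 for *Mettl14*, 0.15 for *Rbm15b* and 0.15 for *Fto*, and the IP difference was 0.11 for *Mettl16*, 0.19 for *Cbll1* and 0.10 for *Fto*. For *Mettl3* in Ctrl the value was -0.073 with no filter, -0.033 in 1 fit of all libraries and from -0.028 (without Ctrl Input replicate 1) to 0.12 with 1 library left out. *Fto* in the Input was 0.049 in 1 fit of all libraries and from -0.074 to 0.0036 (without Ctrl Input replicate 1) with 1 library left out, and in the IP from -0.19 to 0.0100 (without IR IP replicate 2). *Rbm15* in the IP was -0.00013 with no filter and from -0.0024 (without Ctrl IP replicate 2) to 0.069 with 1 library left out. *Cbll1* in the IP was 0.031 with at least 10 counts in every library, 0.0048 with protein-coding nuclear genes only, and from -0.18 to 0.086 with 1 library left out, positive without Ctrl IP replicate 2, Ctrl IP replicate 3 or IR IP replicate 3. Its change ran from -0.069 (without Ctrl IP replicate 1) to 0.20. Other calls gained were *Mettl3* lower in the IR IP against Input with no filter (-0.41) and in 1 fit of all libraries (-0.33), where it was also lower for IR against Ctrl in the IP (-0.30), *Mettl14* lower in the Input without Ctrl Input replicate 2 (-0.19), *Cbll1* higher in the Ctrl IP without Ctrl IP replicate 1 (0.37), and *Mettl16* for the change with library size only (0.52). Each transcript had at least 276 reads in every library, and the effect of depth on the calls was not tested.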

Other observations

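The transcripts whose levels over the 12 libraries were most like those of *Mettl3*, *Alkbh5* and *Fto* were taken from 10567 protein-coding genes by Pearson's r of log2 CPM, as a description, since the libraries fall into 4 groups. *Mettl3* was closest to *Scarb1* (r = 0.96), *Cdkn2aipnl* (0.93) and *Wdr75* (0.93). *Alkbh5* was closest to *Xiap* (0.96), *Pstpip2* (0.96) and *Fndc3b* (0.94). *Fto* was closest to *Grap2*, *Pwwp2b* and *Hrh2*, each with r = 0.98.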
